A study of Mus musculus with 2 samples.

Results

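The sarcomere genes described here are 10 genes that code for parts of the contractile unit of heart muscle, taken by symbol (Ttn, Myh6, Myh7, Myh7b, Mybpc3, Tnnt2, Tnni3, Actc1, Acta1 and Tpm1) out of the 32589 genes in the count files. All 10 were found, each in 1 row. They were measured by single-nucleus RNA-seq of mouse hearts in 1 control library and 1 PD-1 inhibitor library, made with the GEXSCOPE kit, in which each captured transcript carries a unique molecular identifier (UMI). Mice were male C57BL/6, aged 8 weeks at the start. The PD-1 inhibitor group received the antibody against PD-1 intraperitoneally at 5 mg/kg on days 1 and 14 of a 28-day cycle, and the control group received PBS on the same days. How many hearts went into a library is not given in the sources used here. With 1 library per group there was no replicate check, so no test was made. Every interval is an exact 95% interval that covers counting error only and leaves the spread between hearts of a group unknown.

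The sarcomere is built from thick filaments of myosin and thin filaments of actin, which slide past each other when the heart beats. Myosin heavy chains are the motors, myosin binding protein C tunes them, and titin is the giant spring that holds the thick filament in place. On the thin filament, tropomyosin and the troponin complex open and close the sites to which myosin binds when calcium enters. Cardiomyocytes (CMs) hold these transcripts in large amounts, so that they are also a common source of free RNA in heart nuclei preparations.

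Levels are UMIs per 1000000 UMIs of all genes (CPM), summed over the nuclei of a set in a library. CM nuclei came from 2 of 21 clusters, named from 16 CM markers that included none of the 10 genes, and the clusters were made without the sarcomere genes. CM nuclei were split by the share of UMIs from mt- genes, those encoded in the mitochondrial genome. The low-mt CMs, with under 2%, were 721 control and 507 PD-1 inhibitor nuclei, and the high-mt CMs, with 5 to 20%, were 468 and 474. Between them lay 80 and 91 nuclei, and the 9 other named cell types held 8222 and 6559. A low-mt CM had a median of 1641 and 1580 UMIs and a high-mt CM 1183 and 1295.5. The nuclear RNA Malat1 was at 119625 and 129265 CPM in low-mt CMs against 11141 and 9571 in high-mt CMs. The ranges thus differed in their Malat1 level as well as in their mt- share, and the part of this in the differences between them was not tested. The libraries shared 48 cell barcodes. Of 12 skeletal muscle markers, 8 had 0 UMIs in low-mt CMs of each library, and all 12 together had 32 and 17 UMIs there. With both libraries summed, 0 of the 12 reached 50 UMIs in high-mt CMs or in the CM nuclei between the ranges. Over all CMs 1 marker did, and in the 9 other cell types 3 did.

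The thick filament genes lie on 2 chromosomes. Coordinates were read from GENCODE vM21 on GRCm38, the build named in the submitters' processing notes. Myh6 (ENSMUSG00000040752, chr14:54941921-54966927, minus strand) and Myh7 (ENSMUSG00000053093, chr14:54970684-54994626, minus strand) are neighbours, and code for the α- and β-myosin heavy chains. Myh7b (ENSMUSG00000074652, chr2:155611212-155634307, plus strand) codes for a related myosin. Each of the 3 genes carries a microRNA in an intron, on the same strand. Their main arms are shown because these hosts behaved differently between the nuclei. The mature sequences are from RefSeq (GRCm38.p6), and capitals mark the seed, bases 2 to 8.
mmu-miR-208a-3p, intron of Myh6, chr14:54949072-54949093: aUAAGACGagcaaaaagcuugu
mmu-miR-208b-3p, intron of Myh7, chr14:54975710-54975731: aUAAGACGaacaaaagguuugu
mmu-miR-499-5p, intron of Myh7b, chr2:155622893-155622913: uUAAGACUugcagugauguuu
The arms of Myh6 and Myh7 had the same seed, and that of Myh7b differed from it at the last base of the seed. The mature microRNAs themselves were not measured.

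Ttn, the titin gene (ENSMUSG00000051747, chr2:76703980-76982547, minus strand), spanned 279 kb with 117 kb of exons, the largest of the 10. Mybpc3, cardiac myosin binding protein C, lies at chr2:91118144-91136516 (ENSMUSG00000002100, plus strand). The thin filament genes were Actc1, cardiac α-actin (ENSMUSG00000068614, chr2:114047282-114053548, minus strand), Acta1, skeletal α-actin (ENSMUSG00000031972, chr8:123891769-123894751, minus strand), Tpm1, α-tropomyosin (ENSMUSG00000032366, chr9:67022590-67049406, minus strand), Tnnt2, cardiac troponin T (ENSMUSG00000026414, chr1:135836354-135852260, plus strand) and Tnni3, cardiac troponin I (ENSMUSG00000035458, chr7:4518305-4524229, minus strand).

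Both actin genes were higher in high-mt than in low-mt CMs, so their promoters are shown. The SRF box is the CArG element bound by serum response factor, matched here as CC, 6 bases of A or T, and GG. Of the 10 genes, only the 2 actin genes held one in the 250 bases before an annotated start. Tpm1 and Tnni3, which were also higher in high-mt CMs, held none. Among 32851 RefSeq promoters of that length, 482 (1.47%) held a match on either strand. The windows run from 112 to 13 bases before the start in RefSeq on GRCm38.p6, read on the gene's strand, and capitals mark the box.
Actc1, chr2:114052888-114052987: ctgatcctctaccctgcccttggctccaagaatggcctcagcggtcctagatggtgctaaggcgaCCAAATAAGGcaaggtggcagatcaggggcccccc
Acta1, chr8:123894788-123894887: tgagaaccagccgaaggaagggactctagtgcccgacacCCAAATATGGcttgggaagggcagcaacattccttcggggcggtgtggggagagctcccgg
The box began 47 bases before the RefSeq start of Actc1 and 73 before that of Acta1. The GENCODE coordinates of Actc1 given above begin further upstream, so its window lies inside that gene, outside its annotated exons. A MEF2 box was found in the promoters of Ttn and Mybpc3, and in 2.92% of all promoters. A match is a description of letters and not a measured binding site.

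The 10 genes together made up 4.73% of all UMIs in control low-mt CMs and 5.38% in PD-1 inhibitor low-mt CMs. In high-mt CMs they made up 7.36% and 7.39%. Every CM nucleus of either library had a UMI of at least 1 of them. Per kb of exon, merged over all annotated transcripts, Myh6 was the highest in low-mt CMs, at 2062 CPM per kb in control and 2640 in PD-1 inhibitor. In the control library Actc1 (1555), Tnnt2 (1053), Tnni3 (1019), Mybpc3 (359) and Tpm1 (348) followed, then Ttn (138), Myh7b (102), Acta1 (33.1) and Myh7 (9.22). The counting intervals of the neighbours Tnnt2 and Tnni3 overlapped, as did those of Mybpc3 and Tpm1. In high-mt CMs Actc1 was the highest per kb, at 6844 and 6744, followed by Tnni3 at 3054 and 3772, and Myh7b was the lowest, at 8.62 and 4.73. Without division by length, Ttn was the highest in control low-mt CMs, at 16133 CPM, with Myh6 at 13870. In PD-1 inhibitor low-mt CMs Myh6 was the highest, at 17759, with Ttn at 13559. Myh6 was also the highest in high-mt CMs, at 18375 and 17544. The order per kb rests on the choice of length, since the merged exons of Tnnt2 have 7.75 kb and its longest mRNA 1.2 kb. Per kb of the longest mRNA, an alternative added after seeing the data, Tnnt2 was the highest in low-mt CMs, at 6805 and 10463, with Myh6 at 2269 and 2905. In high-mt CMs Actc1 (7517) was then above Tnnt2 (7285) in control, with overlapping intervals, and Tnnt2 (9095) above Actc1 (7408) in PD-1 inhibitor.

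**Figure D1:**
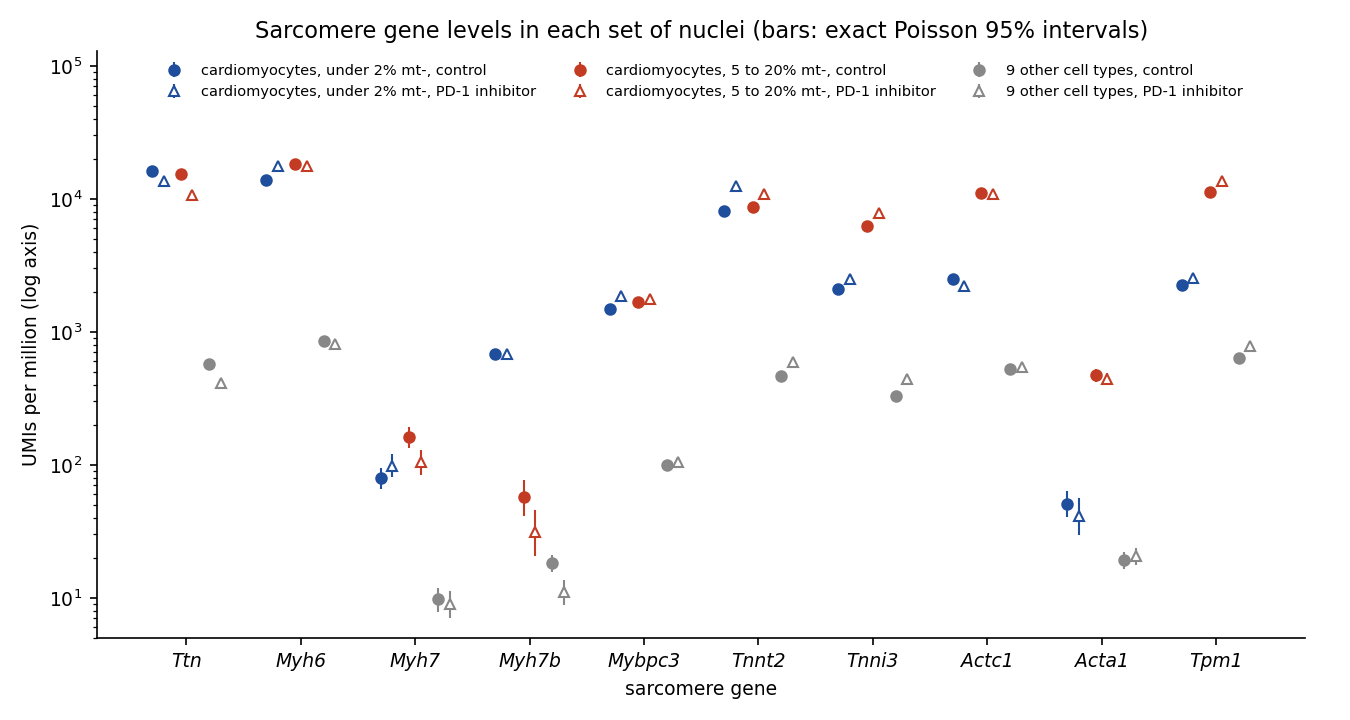
UMIs per 1000000 UMIs, CPM (log axis), of each sarcomere gene in low-mt CMs, high-mt CMs and the 9 other cell types summed together, with filled circles for the control library and open triangles for the PD-1 inhibitor library and exact Poisson 95% intervals as bars. Actc1, Acta1, Tpm1 and Tnni3 sat higher in high-mt than in low-mt CMs of both libraries, Myh7b sat lower, and in the other cell types together all 10 genes were below their level in both sets of CMs.

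Low-mt and high-mt CMs of the same library were compared first. Acta1, Tpm1, Actc1 and Tnni3 were over 1.5-fold higher in high-mt CMs of both libraries, and Myh7b was over 1.5-fold lower. These were 4 higher and 1 lower of the 10 genes, where 23.8% of 5867 genes tested were higher and 37.4% were lower in both libraries. By library, 5 were higher in control, where 26.9% of all genes were, and 4 in PD-1 inhibitor, where 28.1% were, and 1 was lower in each, where 44% and 43.2% of all genes were. The median log2 ratio of high-mt over low-mt CMs was -0.37 over all genes in control and -0.33 in PD-1 inhibitor, so a gene at 0 stood above most genes.

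The thin filament genes gave 4 of these differences. Acta1, the actin of skeletal muscle that adult heart makes in small amounts, had 80 UMIs (50.8 CPM) in control low-mt CMs and 338 (471) in control high-mt CMs. In the PD-1 inhibitor library it had 42 (41.5 CPM) and 366 (442). The low-mt and high-mt intervals did not overlap in either library, and the level was 9.23-fold (7.25 to 12.0) and 10.5-fold (7.72 to 15) higher in high-mt CMs. A UMI of Acta1 was seen in 6.38% and 5.92% of low-mt CMs against 19.4% and 19.6% of high-mt CMs. With every nucleus thinned to 500 UMIs, the shares were 1.25% and 2.17% against 12.6% and 11.2%. The richest 47 control and 48 PD-1 inhibitor high-mt CMs held 85.8% and 84.4% of the Acta1 UMIs of that range.

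Tpm1, the tropomyosin that covers the myosin binding sites, was at 2260 CPM in control low-mt CMs and 11341 in control high-mt CMs. The PD-1 inhibitor library gave 2539 and 13576. These were 5.02-fold and 5.35-fold higher in high-mt CMs, with no overlap of intervals. Actc1, the main actin of the heart, stood at 2516 and 11073 in control and at 2227 and 10912 in PD-1 inhibitor, 4.4-fold and 4.90-fold higher. Tnni3, the inhibitory subunit of troponin, stood at 2103 and 6301 and at 2508 and 7782, 3.00-fold and 3.10-fold higher. For each of these 3 genes both libraries gave nearly the same fold, and the order Acta1, Tpm1, Actc1, Tnni3 was the same in both.

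Tnnt2, the troponin subunit that anchors the complex to tropomyosin, did not follow Tnni3. It was at 8166 CPM in control low-mt CMs and 8742 in control high-mt CMs. In the PD-1 inhibitor library it was at 12555 and 10914. The log2 ratio was 0.10 (0.05 to 0.14) in control and -0.20 (-0.24 to -0.16) in PD-1 inhibitor, both within 1.5-fold, and the latter became 0.13 when ratios were centred on the median of all genes.

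In the thick filament, Myh7b was the gene with the opposite pattern. It had 1067 UMIs (678 CPM) in control low-mt CMs and 41 (57.2) in control high-mt CMs. In the PD-1 inhibitor library it had 690 (682 CPM) and 26 (31.4). Its level in high-mt CMs was 11.7-fold lower (8.68 to 16.6) in control and 21.3-fold lower (14.7 to 33.5) in PD-1 inhibitor. A UMI of Myh7b was seen in 53.5% and 47.1% of low-mt CMs but in 5.77% and 4.01% of high-mt CMs, and after thinning in 25% and 21.3% against 2.35% and 1.27%. Malat1 was 10.7-fold and 13.5-fold lower in the same nuclei.

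Myh6, the α-myosin heavy chain that dominates the adult mouse heart, was at 13870 CPM in control low-mt CMs and 18375 in control high-mt CMs, and at 17759 and 17544 in PD-1 inhibitor. The log2 ratios were 0.41 (0.37 to 0.44) and -0.02 (-0.05 to 0.01). In the control library the ratio passed 1.5-fold when mt-, ribosomal protein and sarcomere genes were left out of the total (0.65) or when ratios were centred (0.78), and both settings turned that of the PD-1 inhibitor library positive (0.20 and 0.31). Mybpc3 hardly moved, at 1494 and 1690 in control and at 1849 and 1779 in PD-1 inhibitor, with log2 ratios of 0.18 and -0.06, of which the second turned to 0.16 and 0.27 under these settings. Ttn was at 16133 and 15436 in control and at 13559 and 10770 in PD-1 inhibitor. Its log2 ratios of -0.06 and -0.33 were 0.31 and -0.0021 after centring. Over the 14 other settings the control ratio ran from -0.51 to 0.31. The high-mt level of Ttn was not even within its range. It was at 21107 CPM in control nuclei with 5 to 10% mt- and at 11293 in those with 10 to 20%. The PD-1 inhibitor library had 11954 and 9374.

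Myh7, the β-myosin heavy chain of fetal and slow muscle, was scarce in CMs. It had 125 UMIs (79.4 CPM) in control low-mt CMs and 116 (162) in control high-mt CMs. PD-1 inhibitor CMs had 100 (98.8) and 87 (105). The log2 ratio was 1.03 (0.65 to 1.40) in control and 0.09 (-0.34 to 0.52) in PD-1 inhibitor. The latter was negative in 3 of 14 other settings, at -0.38 with a mean over nuclei, -0.36 after thinning and -0.08 without the richest nucleus. In control high-mt CMs a single nucleus held 26 of the 116 UMIs (22.4%). Myh7 and Myh6 share sequence: 687 windows of 100 bases, 11.2% of those in the longest Myh7 transcript, occur in the longest Myh6 transcript as well. Of the last 500 windows of the Myh7 transcript, at its 3' end, 175 were shared. Their UMIs may thus be split by the authors' counting. No such window was shared by Acta1 and Actc1.

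**Figure D2:**
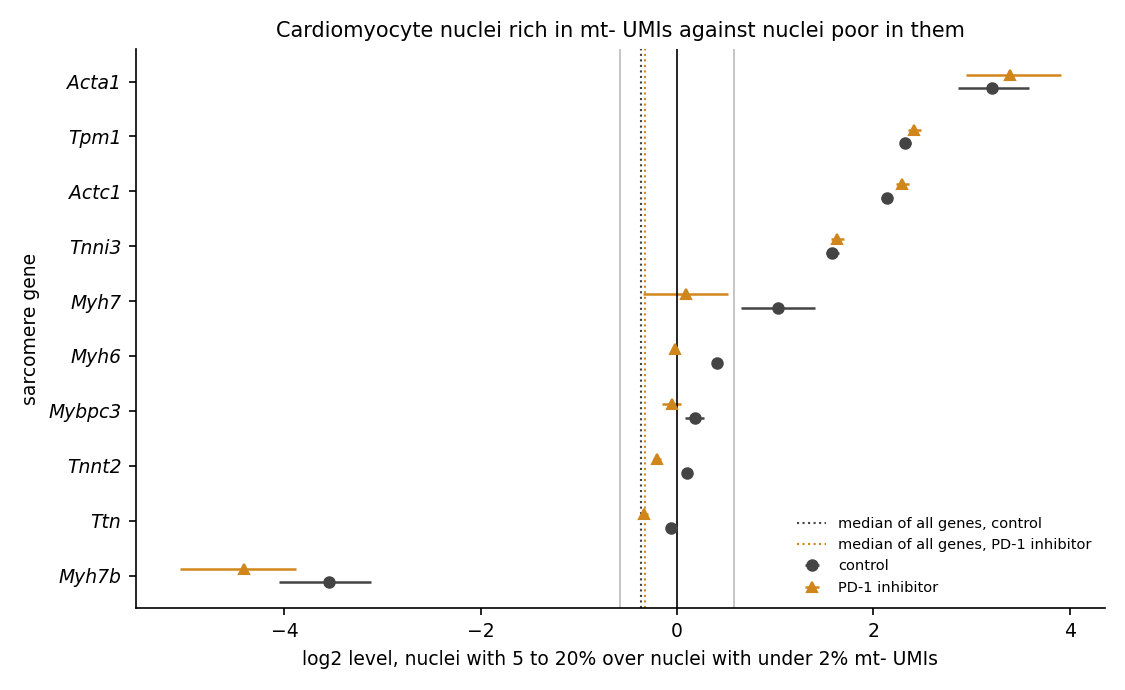
Log2 ratio of the level in high-mt over low-mt CMs for each sarcomere gene (horizontal axis), for the control and the PD-1 inhibitor library, with exact 95% counting intervals as bars and dotted lines at the median of all genes. Acta1, Tpm1, Actc1 and Tnni3 lay to the right of 1.5-fold in both libraries and Myh7b to the left, with Myh7 to the right in the control library only.

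Myh7 is overlapped on the opposite strand by Mhrt, a heart long noncoding RNA, and by Gm17428 and Gm31251. These 3 genes together had 5265 UMIs in control low-mt CMs, 42.1 for each UMI of Myh7, and 3393 in PD-1 inhibitor low-mt CMs, 33.9 for each. In high-mt CMs they had 242 in each library, 9.89-fold and 11.5-fold lower in CPM. Myh7b was 11.7-fold lower in control, where the intervals of both folds overlapped, and 21.3-fold lower in PD-1 inhibitor, where they did not (10.1 to 13.1 for the antisense genes and 14.7 to 33.5 for Myh7b). The strand setting of the counting is not given in the sources used here, and without it reads of Myh7 and of its antisense genes cannot be told apart. Ttn, Myh6, Myh7b, Actc1 and Acta1 also have a gene on the opposite strand, and Tnni3 overlaps Dnaaf3 on the same strand, which had 0 UMIs in control low-mt and high-mt CMs.

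With CM nuclei in 5 ranges of the mt- share, Tpm1 and Tnni3 were higher in each range than in the one before, in both libraries. Tpm1 went in the control library from 2218 CPM below 1% mt- to 3409, 6214, 10928 and 11642 in the ranges 1 to 2%, 2 to 5%, 5 to 10% and 10 to 20%. In the PD-1 inhibitor library it went from 2474 to 2837, 8245, 13069 and 14174. Tnni3 went from 2082 to 6713 in control and from 2410 to 8051 in PD-1 inhibitor. Myh7b went the other way. It kept 679 and 660 CPM below 2% in control, had 418 (307 to 556) at 2 to 5%, and had 66.1 and 50.7 above. In the PD-1 inhibitor library it went from 694 and 627 to 167 (108 to 246), 42.4 and 18.4.

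Acta1 had a peak in the middle range of the control library only. It stood at 1138 CPM (949 to 1353) in the 80 control nuclei with 2 to 5% mt-, against 515 and 439 in the ranges above and 51.4 and 35.7 in those below. The PD-1 inhibitor library had 274 (196 to 371) in its 91 nuclei of that range. Of the 128 control UMIs, 50 came from 1 nucleus and 37 from another, and 24 of the 80 nuclei had any. The richest 8 of the 80 control nuclei held 85.2% of them. Without the highest nucleus of each library the levels were 716 (566 to 894) and 156 (98.8 to 234), which did not overlap. The second control nucleus, with 37 UMIs, was kept there, and the level without both was not computed. In the same range Myl7, an atrial light chain, made up 15.3% and 11.3% of Myl7 plus Myl2 UMIs, against 2.57% and 2.39% in low-mt CMs. A clustering that kept the sarcomere genes gave a cluster of atrial-like CM nuclei. Acta1 was at 16.6 and 24.5 CPM in that cluster, against 237 and 231 in the other CMs. Over all mt- shares the cluster held 1 Acta1 UMI in control and 2 in PD-1 inhibitor, beside the 128 control UMIs at 2 to 5%. The part of atrial-like nuclei in the level of Acta1 at 2 to 5% was not tested.

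**Figure D3:**
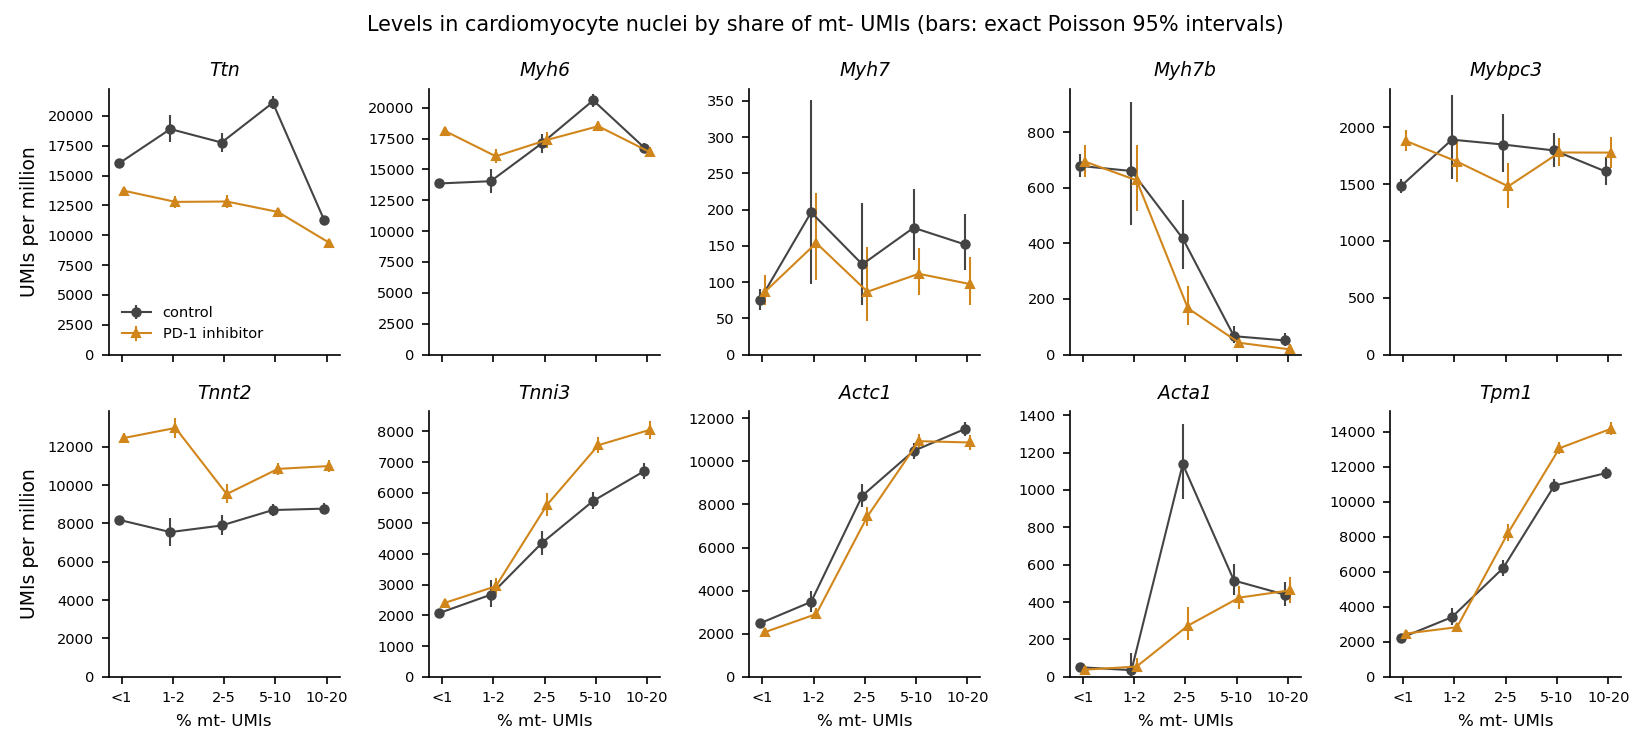
CPM of each sarcomere gene in CM nuclei of 5 ranges of the mt- share (horizontal axis, in %), for the control (circles) and the PD-1 inhibitor library (triangles), with exact Poisson 95% intervals as bars. Tpm1 and Tnni3 were highest and Myh7b lowest at 10 to 20% in both libraries, Ttn was lower and Tnnt2 higher in the PD-1 inhibitor library in all 5 ranges, and Acta1 reached 1138 in the control nuclei with 2 to 5%.

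Within the pairs of isoforms, the adult form made up nearly all UMIs. Myh7 made up 0.57% (0.47 to 0.68) of Myh6 plus Myh7 in control low-mt CMs and 0.55% (0.45 to 0.67) in PD-1 inhibitor low-mt CMs. In high-mt CMs the shares were 0.87% (0.72 to 1.05) and 0.59% (0.48 to 0.73), and the control share was 0.68% without the nucleus richest in Myh7. The intervals of the libraries overlapped in both ranges. Acta1 made up 1.98% (1.57 to 2.46) and 1.83% (1.32 to 2.46) of Acta1 plus Actc1 in low-mt CMs. In high-mt CMs it made up 4.08% (3.67 to 4.53) and 3.89% (3.51 to 4.30). Libraries did not differ beyond their intervals here either, while the high-mt share lay above the low-mt share in both. Tnni1, the troponin I of the fetal heart, had 1 and 2 UMIs in low-mt CMs and 0 in high-mt CMs, against 4519 and 6449 of Tnni3 there. A count of 0 allows a share of Tnni1 of up to 0.082% and 0.057% by the exact interval.

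Between the libraries, differences were smaller. The sets compared did not have the same mt- share. Its median was 0.34% in control and 0.66% in PD-1 inhibitor low-mt CMs, and 9.97% and 8.81% in high-mt CMs. In low-mt CMs, Tnnt2 was over 1.5-fold higher in the PD-1 inhibitor library, where 8.61% of 7146 genes were, and none of the 10 genes was over 1.5-fold lower, where 7.25% were. Tnnt2 had 12852 UMIs (8166 CPM) in control and 12708 (12555) in PD-1 inhibitor, a log2 ratio of 0.62 (0.59 to 0.66). It lay at the limit of 1.5-fold, as a mean over nuclei gave 0.58 and thinning gave 0.57, both just within. Myh6 was higher by 0.36 (0.33 to 0.39), Mybpc3 by 0.31 (0.22 to 0.40), Tnni3 by 0.25 (0.18 to 0.33) and Tpm1 by 0.17 (0.09 to 0.24) on the log2 scale. Ttn was at -0.25 (-0.28 to -0.22) and Actc1 at -0.18 (-0.25 to -0.10). The intervals of Myh7, Myh7b and Acta1 held 0, with ratios of 0.32, 0.0084 and -0.28. A single nucleus of the PD-1 inhibitor library held 698 of its 17975 Myh6 UMIs.

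In high-mt CMs, 2 genes were over 1.5-fold lower in the PD-1 inhibitor library, where 7.77% of 4802 genes were, and none was higher, where 5.89% were. Myh7b was at 57.2 CPM in control and 31.4 in PD-1 inhibitor, a log2 ratio of -0.86 (-1.63 to -0.12) from 41 and 26 UMIs. Myh7 was at 162 and 105, a ratio of -0.62 (-1.04 to -0.21), which became -0.49 when the richest nucleus of each library was left out and -0.57 with at least 500 genes per nucleus. Ttn was lower as well, at -0.52 (-0.56 to -0.48), and passed 1.5-fold with the same mix of mt- ranges in both libraries (-0.60). Tnnt2 was at 0.32 (0.27 to 0.37), Tnni3 at 0.30 (0.25 to 0.36) and Tpm1 at 0.26 (0.22 to 0.30). Myh6 was at -0.07 (-0.10 to -0.03), and the intervals of Mybpc3, Actc1 and Acta1 held 0.

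Tnnt2 was higher and Ttn lower in the PD-1 inhibitor library in all 5 ranges of the mt- share, which all come from the same 2 libraries. The ratio of Tnnt2 lay between 0.27 and 0.78 and that of Ttn between -0.82 and -0.22. In the 80 and 91 nuclei with 2 to 5% mt-, Acta1 (-2.04) and Myh7b (-1.31) were over 1.5-fold lower, where 9.91% of 787 genes were, and none was higher, where 10.9% were. A single control nucleus held 50 of the 128 Acta1 UMIs there, and another held 37. Over all 1269 and 1072 CMs none of the 10 genes passed 1.5-fold, where 8.01% of 9142 genes were higher and 8.27% lower. The highest ratios there were 0.55 for Tpm1 and 0.51 for Tnni3, both above their ratios within either range, and high-mt CMs numbered 468 of 1269 in control but 474 of 1072 in PD-1 inhibitor.

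Ratios of all genes moved with gene length in the same comparison. In low-mt CMs the median log2 ratio of PD-1 inhibitor over control was 0.23 for the shortest of 5 equal classes of gene span, 0.10, 0.04 and -0.07 for the next, and -0.21 for the longest, genes of at least 94.3 kb, which holds Ttn. In high-mt CMs it went from 0.10 to -0.15. The ratio of Ttn, -0.25 and -0.52, stood below its class in both. The ratio of high-mt over low-mt CMs moved more, from a median of 0.95 to -1.05 in the control library. Among the 10 genes, the Spearman correlation of that ratio with exon length was -0.67 in each library and with gene span -0.41 (n = 10 genes that share their libraries and nuclei). Over all genes it was -0.37 in control and -0.42 in PD-1 inhibitor with exon length, and -0.42 in each library with span. The part of length in the ratios of the 10 genes was not tested.

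**Figure D4:**
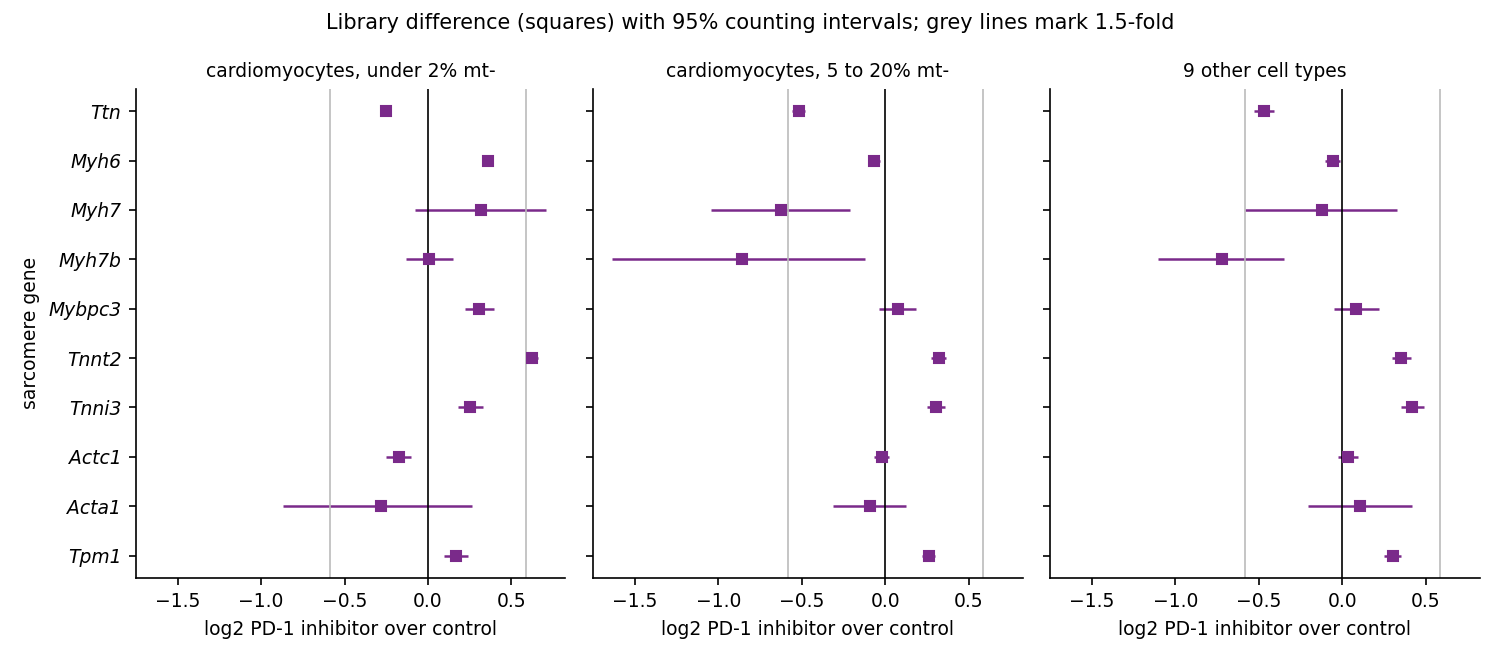
Log2 ratio of PD-1 inhibitor over control (horizontal axis) for each sarcomere gene in low-mt CMs, high-mt CMs and the other cell types, with exact 95% counting intervals as bars and grey lines at 1.5-fold. Tnnt2 reached 0.62 in low-mt CMs, Myh7 and Myh7b lay below the lower line in high-mt CMs, and Ttn lay below 0 in all 3 sets.

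UMIs of the 10 genes in the other 9 cell types served as a measure of free RNA. All 10 were over 1.5-fold higher in CMs than in those types, where 15.8% of genes in control and 15.1% in PD-1 inhibitor were. Together they had 3528 and 3736 CPM there, 6.30% and 5.94% of the level in all CMs. At least 1 UMI was seen in 91.2% and 93.6% of those nuclei, and in 74.8% and 78.1% after thinning to 500 UMIs, with a median of 3 UMIs per nucleus in each library. By type, the sum ranged in control from 1679 in adipocytes to 5138 in T cells, with 3902 in ECs, 3150 in fibroblasts, 3524 in MPs and 4471 in mural cells. In PD-1 inhibitor it ranged from 1766 in adipocytes to 5971 in mural cells, where 1 nucleus held 281 of the 2901 UMIs. No type was without these UMIs.

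The make-up of these UMIs was closer to that of high-mt than of low-mt CMs. With the distance taken as the sum over the 10 genes of the shares by which 1 set exceeded the other, the other types lay 28.4 and 34.3 percentage points from low-mt CMs and 5.77 and 5.79 from high-mt CMs of the same library. High-mt and low-mt CMs lay 25 and 30.7 apart. Gene by gene, the level in other types was 2.68% and 1.61% of that in low-mt CMs for Myh7b, 3.57% and 3.06% for Ttn, 21.0% and 24.3% for Actc1, 28.2% and 30.9% for Tpm1 and 37.6% and 49.5% for Acta1. Against high-mt CMs all but 1 gene fell between 3.73% and 8.52%. The exception was Myh7b, at 31.8% and 35.0%.

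Tpm1, which smooth muscle and other cells also make, took a larger share of the UMIs of the 10 genes in several other types than in high-mt CMs. It had 1.02 (0.99 to 1.06) and 1.24 (1.21 to 1.28) UMIs for each Actc1 UMI in high-mt CMs. In mural cells it had 1.65 (1.47 to 1.87) and 1.59 (1.41 to 1.80), and in mesothelial cells 1.53 (1.34 to 1.76) and 1.63 (1.44 to 1.84). ECs had 1.15 (1.08 to 1.23) and 1.47 (1.38 to 1.57), and fibroblasts 1.17 (1.09 to 1.26) and 1.46 (1.35 to 1.57). In all 4 of these types the interval lay above that of high-mt CMs in both libraries, and in PD-1 inhibitor the intervals of ECs and fibroblasts overlapped those of mural cells. MPs had 1.04 (0.93 to 1.15) and 1.09 (0.97 to 1.22), not above high-mt CMs beyond the intervals.

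Between the libraries, the other types gave values of their own, from the same 2 libraries as the CMs. Myh7b was over 1.5-fold lower in the PD-1 inhibitor library (-0.72, -1.11 to -0.35, from 175 and 91 UMIs), where 4.82% of 13863 genes were, and none was higher, where 5.05% were. Ttn was at -0.47 (-0.53 to -0.41), Tnni3 at 0.42 (0.35 to 0.49), Tnnt2 at 0.35 (0.30 to 0.41) and Tpm1 at 0.30 (0.25 to 0.35). Myh6, which had 0.36 in low-mt CMs and -0.07 in high-mt CMs, had -0.06 (-0.11 to -0.01) here. The intervals of Myh7, Mybpc3, Actc1 and Acta1 held 0.

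By type, the library ratio of the free RNA was not even. Of genes tested in ECs, 5.86% were over 1.5-fold higher and 4.45% lower, and none of the 10 was either. In fibroblasts, where 5.6% were higher and 4.03% lower, Ttn was lower (-0.66, -0.79 to -0.54), and so was Myh7b at -0.60, with an interval that held 0 (-1.38 to 0.12, from 46 and 25 UMIs). In MPs, where 7.09% were higher and 6.58% lower, Ttn was lower (-0.69, -0.87 to -0.52). In mural cells, where 8.38% were higher and 8.93% lower, Tnnt2 (0.69, 0.48 to 0.89) and Tnni3 (0.64, 0.40 to 0.87) were higher, and Ttn was at 0.19 (-0.02 to 0.40). A single PD-1 inhibitor mural nucleus held 281 UMIs of the 10 genes, where the median was 4. The highest in control was 128, with a median of 3. The part of these nuclei in the mural ratios was not tested. In mesothelial cells, where 5.62% were higher and 6.26% lower, none of the members with at least 50 UMIs passed 1.5-fold, nor did any in T cells, where 10.4% were higher and 12.9% lower. In the 175 and 80 B cells, where 12% were higher and 16.3% lower, Ttn was lower (-1.49, -2.35 to -0.79, from 129 and 17 UMIs) and Tpm1 higher (0.62, 0.17 to 1.06). In the 154 and 16 adipocytes, where 15.6% were higher and 23.8% lower, Tnnt2 was higher (0.90, 0.13 to 1.58, from 77 and 22 UMIs), while Tpm1 (0.59) and Ttn (-0.79) passed 1.5-fold with intervals that held 0.

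**Figure D5:**
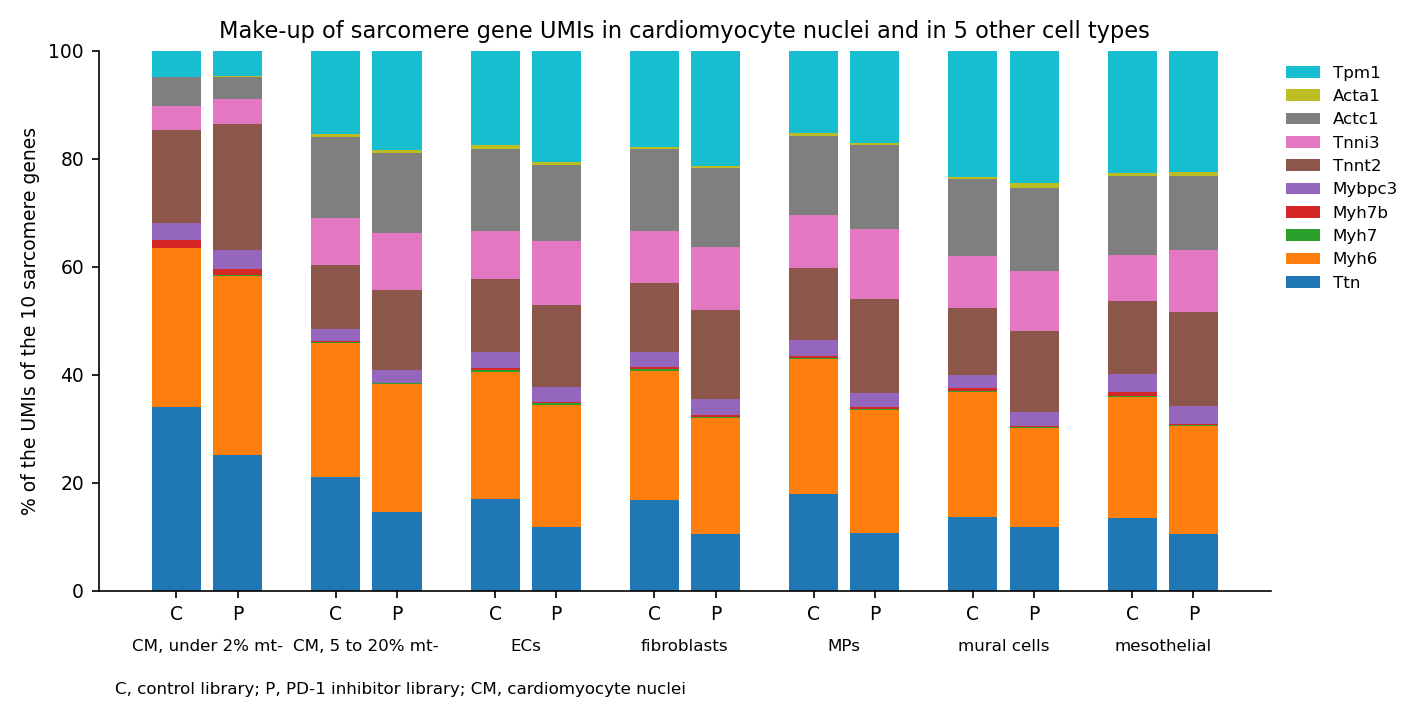
Share (%, vertical axis) of each sarcomere gene in the UMIs of all 10, in low-mt CMs, high-mt CMs and 5 other cell types of the control (C) and the PD-1 inhibitor library (P). Ttn and Myh6 took the largest shares in low-mt CMs, with 34.1% and 29.3% in control, while in ECs, fibroblasts and MPs the shares of Actc1 and Tpm1 were nearer to those of high-mt than of low-mt CMs.

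Other sarcomere genes were taken from lists by compartment. The thick filament and M-band list also holds Myh14, which codes for a non-muscle myosin heavy chain. Of 10 measured genes on this list, 6 were over 1.5-fold higher and 1 lower in high-mt CMs of both libraries. Of all genes, 23.8% were higher and 37.4% lower. Of 7 thin filament genes 2 were higher and 2 lower, and of 14 Z-disc and attachment genes 7 were higher and 2 lower, beside the same shares of all genes. The highest mean log2 ratios were those of the chaperone Cryab (2.80), the myosin light chains Myl4 (2.78) and Myl7 (2.65), which mark atria, and Myl3 (2.38), which marks ventricles. Of the atrial chains, a cluster of 41 control and 43 PD-1 inhibitor atrial-like nuclei, from a clustering with the sarcomere genes kept, held 457 and 777 Myl4 UMIs against 103 and 107 in all other CMs, and 284 and 683 Myl7 UMIs against 70 and 76. The lowest were those of the formin Fhod3 (-1.96), the actin binding Nexn (-1.18) and Nebl (-0.95) and the Z-disc gene Pdlim5 (-0.91).

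In low-mt CMs between the libraries, 2 of 11 genes on the thick filament and M-band list were over 1.5-fold higher in PD-1 inhibitor and 1 lower. These counts were 0 and 1 of 8 for the thin filament and 0 and 2 of 14 for the Z-disc, with 8.61% of all genes higher and 7.25% lower. The M-band gene Myom2 was at 309 and 474 CPM, a log2 ratio of 0.62 (0.43 to 0.80). The other of the 2 higher genes was the non-muscle myosin gene Myh14, at 0.61 (0.04 to 1.18) from 55 and 54 UMIs. Synpo2l was at 0.42 (-0.10 to 0.93), within 1.5-fold. Actn2, the Z-disc α-actinin, was at 1858 and 1028 CPM, a ratio of -0.85 (-0.96 to -0.75). In high-mt CMs Actn2 was at 1762 and 1817, a ratio of 0.04 (-0.06 to 0.15). Myl1 (-2.02) and Tpm2 (-2.17) rested on 53 against 8 and 45 against 6 UMIs.

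The genes whose level over the 10 cell types of both libraries followed the mean of the 10 most closely were Pln (r = 0.974), Fhl2 (0.965), Ryr2 (0.938), Tecrl (0.932) and Lrrc14b (0.931). This was Pearson's r on log2 of the level plus 1, over 20 points that share 2 libraries, among 4088 genes, and Pln, Ryr2 and Tecrl were also among the markers that named the CM clusters. Each library gave 1 point for CMs and 9 for other types, so r mainly reflects the contrast of CMs with the other types.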

How the data were processed

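Nuclei of 1 control and 1 PD-1 inhibitor library were analysed from the UMI counts that the authors deposited, which are whole numbers without normalization. The submitters' processing notes name GRCm38 and mm10. The aligner, the counting software, its annotation and its strand setting are not given in the sources used here. The control library held 10197 barcodes with 13177525 UMIs and the PD-1 inhibitor library 7967 with 10875248, none under 500 UMIs.

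Filters were a minimum of 200 genes and a maximum of 20% mt- UMIs (83 and 15 left out). Scrublet doublets were removed (592, 5.85%, and 308, 3.87%), which left 9522 and 7644. Counts were brought to 10000 a nucleus on a log scale, and 30 principal components of 2000 variable genes, without the sarcomere genes, were clustered with 15 neighbours by the Leiden algorithm at resolution 1 (scanpy 1.11.5). Each cluster took the name whose marker list was detected to the largest part (a UMI in at least 5% of nuclei and over 2 times the level elsewhere), given 3 or more markers. Of 21 clusters 20 were named, so names are rebuilt and may differ from those of the study. Doublets of CMs with other nuclei that were not called may remain.

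UMIs were summed per set of nuclei and given as counts per 1000000 UMIs (CPM). Levels have exact Poisson intervals, shares exact Clopper-Pearson intervals, and log2 ratios, with 0.5 UMI added to each sum, exact conditional binomial intervals (scipy 1.17.1), at 95%. PCR and cell-to-cell spread are not covered. Genes with at least 50 UMIs in the sets compared were counted, past 1.5-fold. With 1 library a group no test was made. Of 32589 gene identifiers 32522 matched GENCODE vM21. The steps were tested on counts simulated from a Poisson distribution with known ratios. These counts hold no spread between nuclei, so this checks the steps and not the intervals on real nuclei.

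Named were the 10 genes, of the other listed genes the 4 highest and 4 lowest by mean ratio of high-mt over low-mt CMs and the 3 highest and 3 lowest by library ratio in low-mt CMs, and the 5 genes with the most similar profile, among those with at least 200 UMIs in CMs. Of 61 listed symbols 60 were in the files. The genes, lists and rules were chosen with earlier results of these data known. Alternatives were a minimum of 500 genes, doublets kept, resolutions of 0.5 and 2, other genes or libraries for clustering, atrial-like nuclei left out, another total, a mean over nuclei, thinning, other mt- ranges, centring and the same mix of mt- ranges. Leaving out the nucleus with most UMIs of a gene and the length of the longest mRNA were added after seeing the data.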

Additional observations from a re-analysis of the deposited data

Results flagged for a closer look

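Myh6 was higher in the PD-1 inhibitor library in low-mt CMs and lower in high-mt CMs, with a log2 ratio of 0.36 in the former, and of -0.067 in the latter. The intervals lay on opposite sides of 0. The difference between the ranges was not tested, as each ratio compares 1 library with 1 library. Tnnt2 was higher in high-mt than in low-mt CMs of the control library, with a log2 ratio of 0.10, while the PD-1 inhibitor library had -0.20. That difference was not tested either, and the second value turned positive when ratios were centred on the median of all genes.

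Barcodes left out of the comparisons in the report also held UMIs of the 10 genes. The 83 control nuclei with over 20% mt- UMIs had 9450 of them, 48876 CPM, and 15 such nuclei in PD-1 inhibitor had 1922, 47249 CPM. In low-mt CMs the 10 genes made up 4.73% and 5.38% of UMIs and in high-mt CMs 7.36% and 7.39%. The 592 barcodes called doublets in control had 11922 UMIs of these genes, 13544 CPM, and the 308 in PD-1 inhibitor had 7853, 14423 CPM, above the level in the other cell types and below that in CMs.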

How the results depend on the processing

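Over 15 alternative settings, 580 log2 values of the 10 genes were computed again, of which 495 stayed within the counting interval of the reported value. The sign changed in 26, none of them where the reported value was past 1.5-fold. Of 199 values with a reported ratio past 1.5-fold, 195 stayed past it and 4 did not, and 4 of the other 381 went past it. The counts of 4 higher and 1 lower genes between high-mt and low-mt CMs of both libraries were the same in the 14 settings run for them. The count of genes higher in PD-1 inhibitor low-mt CMs was 0 with a mean over nuclei. With thinning it was again 1, but from Acta1 (0.84, few UMIs after thinning) in place of Tnnt2 (0.57). The count of genes lower in PD-1 inhibitor high-mt CMs was 1 with at least 500 genes per nucleus and with the richest nucleus left out, where Myh7 no longer passed. Without that nucleus the Myh7 share in control high-mt CMs was 0.681% and the Acta1 share in PD-1 inhibitor high-mt CMs 3.46%. Thinning gave Myh7 shares of 0.715% and 0.674% and an Acta1 share of 1.15% in control for low-mt CMs. The level in other cell types as a percent of that in CMs, in control and PD-1 inhibitor, was 5.91 and 5.42 with at least 500 genes, 7.15 and 6.63 with doublets kept, 6.14 and 5.72 with sarcomere genes used in clustering, 5.79 and 5.37 without mt-, ribosomal protein and sarcomere genes in the total, and 6.38 and 6.49 after thinning. In PD-1 inhibitor it was 6.03 at resolution 2, 5.85 with each library clustered alone and 6.47 as a mean over nuclei. The cause of these changes was not tested.

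No paired analysis was possible because each group has 1 library. Genes with few UMIs, Myh7, Myh7b in high-mt CMs and Acta1 in low-mt CMs, have the widest intervals. A difference within those intervals was not detectable at this depth.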

Other observations

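With the sarcomere genes kept in the clustering, a separate cluster of 41 control and 43 PD-1 inhibitor CM nuclei held the atrial transcripts Nppa, Sln and Myl4. Nppa, the gene of atrial natriuretic peptide, was at 11948 and 13766 CPM in them against 201 and 252 in the other CMs. Among the 10 sarcomere genes, Acta1 had 1 and 2 UMIs in these nuclei, against 559 and 451 in the other CMs, and Myh7b had 4 and 0. Mybpc3 was at 746 (544 to 998) and 821 (636 to 1042) CPM against 1590 and 1816 in the other CMs, log2 ratios of -1.08 (-1.55 to -0.67) and -1.14 (-1.52 to -0.80). Myh6 differed less, with ratios of 0.29 and -0.22, and Tnni3 had ratios of 0.04 and 0.14 whose intervals held 0. The genes that set these nuclei apart in the clustering included the sarcomere genes themselves, so these values are a description.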
